A study of Mus musculus with 2 samples.

Results

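Nuclei with transcripts of Crh, Prdm6, Spx, Svep1 and Asb4 were described among glutamatergic hindbrain neurons that project to the lumbar spinal cord in the mouse. They were selected on raw UMIs (unique molecular identifiers, the counted transcripts). A nucleus had to hold at least 3 UMIs of the 7 transmitter genes Slc17a6, Slc17a7, Slc17a8, Gad1, Gad2, Slc32a1 and Slc6a5, at least 75% of them from the 3 Slc17a genes, and at least 1 UMI in 3 or more of the 5 markers. The rule found 58 of the 713 nuclei, and these are called marker nuclei. Of the 425 nuclei of the hot water bath library, 49 were marker nuclei and 205 were other glutamatergic nuclei. Of the 288 nuclei of the SNI with brush library, 9 were marker nuclei and 117 were other glutamatergic nuclei.

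Both groups were TRAP2 mice of 8 to 12 weeks, a line that carries an inducible Cre recombinase under control of the Fos gene, which active neurons switch on. AAV-retro-H2B-GFP, a virus taken up by axon terminals that carries a nuclear fluorescent protein, had been injected into the lumbar cord of both. One group received a hot water bath and the other the treatment labelled SNI with brush. Hindbrains of each treatment were pooled from -7.3 to -5.2 mm of bregma, and nuclei sorted by fluorescence gave 1 10x 3' library per treatment, so neither treatment has a replicate. Nuclei of 1 library are not replicates, and no p-value was computed. All intervals are exact 95% intervals that cover counting error only, and any difference between libraries cannot be told apart from a difference between 2 pools. Fewer cells of a type in the pool and a lower chance of labelling or capture cannot be told apart either.

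Crh encodes corticotropin-releasing hormone, a peptide best known as the hypothalamic trigger of the stress axis, and is also made by glutamatergic neurons of Barrington's nucleus in the pons that project to the lumbosacral cord and take part in the control of the bladder. Spx encodes spexin, a peptide ligand of galanin receptors. Prdm6 encodes a nuclear protein of the PR domain family of transcriptional regulators, Svep1 a large extracellular matrix protein, and Asb4 an ankyrin repeat protein that serves in ubiquitin ligase complexes. No position within the hindbrain was measured for any nucleus here, so no nucleus was assigned to an anatomical site.

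The promoters of 3 of the markers are shown because these genes define the nuclei described. Each sequence is the 250 bases before the gene's start, from RefSeq on GRCm38.p6, written 5' to 3' on the gene's own strand. They lie at chr6:142413138-142413387 on the plus strand for Spx, chr4:58206597-58206846 on the minus strand for Svep1, and chr6:5383136-5383385 on the plus strand for Asb4. Capitals mark the homeodomain core TAATTA.
Spx: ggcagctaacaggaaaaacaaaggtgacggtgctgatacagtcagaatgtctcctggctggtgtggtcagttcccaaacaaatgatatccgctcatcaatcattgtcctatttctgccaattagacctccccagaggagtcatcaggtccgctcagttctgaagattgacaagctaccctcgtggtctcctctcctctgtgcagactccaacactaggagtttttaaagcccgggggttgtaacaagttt
Svep1: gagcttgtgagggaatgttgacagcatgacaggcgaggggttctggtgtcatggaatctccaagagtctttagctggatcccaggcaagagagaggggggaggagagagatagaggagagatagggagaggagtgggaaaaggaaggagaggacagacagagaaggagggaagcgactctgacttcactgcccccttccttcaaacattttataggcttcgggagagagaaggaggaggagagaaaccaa
Asb4: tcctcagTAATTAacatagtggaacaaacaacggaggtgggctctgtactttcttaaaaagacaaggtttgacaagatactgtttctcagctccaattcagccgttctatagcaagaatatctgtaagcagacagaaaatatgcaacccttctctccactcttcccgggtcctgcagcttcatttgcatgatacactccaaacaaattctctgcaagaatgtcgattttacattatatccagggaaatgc
The motif TAATTA, the palindromic EBF motif (TCCC and GGGA with 2 free bases between them) and the cyclic AMP response element TGACGTCA were searched on both strands, and none of the 3 patterns contains another. The table gives a second start for Spx, at chr6:142413181-142413430, and for Asb4, at chr6:5390160-5390409. The Asb4 promoter printed held TAATTA, the other Asb4 promoter did not, and none of the 5 promoters of these 3 genes held either other motif. Of 32851 mouse promoters of the same length, 4.84% held TAATTA, 0.779% the EBF motif and 1.55% TGACGTCA. A match describes the letters only.

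The marker nuclei made up 19.3% (14.6 to 24.7%) of the 254 glutamatergic nuclei in the hot water bath library and 7.14% (3.32 to 13.1%) of the 126 in the SNI with brush library. Each interval counts nuclei of 1 pool, and the difference between the libraries was not tested. With the rule applied after thinning nuclei to 10000 UMIs, the shares were 7.78% and 1.82%, on 7 nuclei and 1 nucleus. The libraries shared 0 cell barcodes. Median depth in the hot water bath library was 36581 UMIs in marker nuclei and 39539 in the other glutamatergic nuclei. The SNI with brush medians were 45730 and 37249 UMIs. Mitochondrial transcripts took 0.108% of the UMIs of the hot water bath marker nuclei and 0.101% of those of the other glutamatergic nuclei. The SNI with brush marker nuclei had 0.545% and the others there 0.366%. The part that these differences in depth and mitochondrial share have in the shares of marker nuclei was not tested.

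Most nuclei of both transmitter classes held 0 or 1 marker, and these numbers describe the rule. Among hot water bath glutamatergic nuclei, 118 had no marker, 59 had 1, 28 had 2, 21 had 3, 20 had 4 and 8 had all 5. Of the 85 inhibitory nuclei of that library, 83 had 0 or 1 marker, 1 had 2 and 1 had 3. In the SNI with brush library 106 of the 126 glutamatergic nuclei had 0 or 1 marker, 11 had 2, 5 had 3, 2 had 4 and 2 had 5. A further 15 hot water bath nuclei had 3 or more markers but did not pass the transmitter part of the rule. Of these, 8 had fewer than 3 transmitter UMIs, 6 had mixed transmitter UMIs and 1 was inhibitory.

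The levels of the 12 rule genes describe the choice and are not findings. In the hot water bath library Crh gave 174 UMIs in 39 of 49 marker nuclei, with a lowest of 0, a median of 2 and a highest of 35 per nucleus, and 46 UMIs in 16 of the 205 other glutamatergic nuclei. Prdm6 gave 202 UMIs in 40 of 49 marker nuclei (median 4, highest 19 per nucleus) and Svep1 181 UMIs in 38. Spx gave 147 UMIs in 34 marker nuclei and Asb4 100 UMIs in 32. Every marker was therefore missing from some marker nuclei. Slc17a6, the vesicular glutamate transporter VGLUT2, stood at 159 CPM (UMIs of the gene per 1000000 UMIs) in marker nuclei and 174 in the others, whereas Slc17a7, VGLUT1, had 0 UMIs in marker nuclei and 61 in 7 of the others.

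Crh and Prdm6 themselves were not found in every marker nucleus. Both had a UMI in 30 of the 49 hot water bath marker nuclei, 10 had Prdm6 without Crh, 9 had Crh without Prdm6, and 0 had neither. The most frequent set was Prdm6, Spx, Crh and Svep1 without Asb4, in 11 nuclei, followed by all 5 markers in 8 and Crh, Svep1 and Asb4 in 6. Of the 9 SNI with brush marker nuclei 3 held both, 2 Prdm6 without Crh, 3 Crh without Prdm6, and 1 neither. The name Crh and Prdm6 neurons therefore covers 33 of the 58 nuclei strictly.

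Free RNA can place UMIs in nuclei that do not express a gene, so shares were set beside those of inhibitory nuclei at one depth. Marker nuclei were chosen for UMIs of these same genes. Their higher shares follow from the rule and cannot separate expression from free RNA. After thinning to 10000 UMIs, Prdm6 was found in 63.3% (48.3 to 76.6%) of hot water bath marker nuclei and 1.18% (0.0298 to 6.38%) of inhibitory nuclei. Crh was found in 38.8% (25.2 to 53.8%) and 1.18%. At full depth Crh was in 79.6% of marker nuclei (median depth 36581 UMIs) and 3.53% of inhibitory nuclei (median depth 35745 UMIs). Svep1 had the highest share in inhibitory nuclei of the 5 markers after thinning, 11.8% (5.79 to 20.6%), beside 59.2% in marker nuclei. At full depth it was in 14 of 85 inhibitory nuclei, with a highest of 13 UMIs. Whether inhibitory nuclei express these genes was not tested.

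Each marker was also measured in nuclei chosen without it, by at least 3 of the other 4 markers. Crh then stood at 99.6 CPM in the 37 nuclei chosen and 8.97 CPM in the 217 other glutamatergic nuclei of the hot water bath library, a log2 ratio of 3.47 (3.07 to 3.89). The ratios were 3.48 for Svep1, 2.92 (2.38 to 3.47) for Asb4, 2.89 (2.48 to 3.31) for Spx and 1.96 (1.64 to 2.28) for Prdm6. In the SNI with brush library, with 5 to 7 nuclei chosen, the ratios ran from 1.59 for Spx (0.12 to 2.65) to 3.99 for Svep1 (2.99 to 4.96). The 5 genes were put together with earlier results of these data known, so these ratios describe the set and support nothing. They were smallest for Prdm6 in the hot water bath library and for Spx in the SNI with brush library.

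The transcriptome outside the rule genes was compared between the 49 marker nuclei and the 205 other glutamatergic nuclei of the hot water bath library. Ratios are of CPM of UMIs summed over nuclei, with 0.5 UMI added to both sums, among 10178 genes with at least 50 UMIs over both. Of these, 169 (1.66%) were higher by 2-fold or more in marker nuclei, and 298 (2.93%) were lower by as much. The nuclei were chosen within this contrast, so these counts and the genes named from it are a description. The genes named are the 15 with the highest ratio and 9 of the 10 with the lowest that had a UMI in at least 25% of the nuclei of the higher side and no more than 25% of those UMIs in 1 nucleus.

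Transcription factors, kinases and surface proteins were among the 15 higher genes. Ebf1, a helix-loop-helix transcription factor of early neuron differentiation (ENSMUSG00000057098, chr11:44617317-45008091, plus strand), was found in every marker nucleus. It gave 2295 UMIs, 1236 CPM, in marker nuclei and 268 CPM in the others, a log2 ratio of 2.20 (2.12 to 2.29). Per nucleus it had a median of 11.3 UMIs per 10000 in marker nuclei and 1.18 in the others. Among the others 168 of 205 held Ebf1 UMIs. The groups thus overlap in range, with highest values of 33.0 and 44.3, while their medians lie apart. Lhx9, a LIM homeodomain factor (ENSMUSG00000019230), was found in 26 of 49 marker nuclei and 19 of 205 others, at 23.7 and 4.06 CPM.

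Pde11a, a phosphodiesterase that degrades both cyclic AMP and cyclic GMP (ENSMUSG00000075270, chr2:75989141-76338774, minus strand), stood at 261 CPM in marker nuclei and 38.7 in the others, a log2 ratio of 2.75 (2.54 to 2.96). It was found in 45 of 49 marker nuclei and 83 of 205 others. Calcr, the calcitonin receptor, stood at 104 and 15.4 CPM (2.76, 2.43 to 3.09) but in only 22 of 49 marker nuclei, and 19.6% of its UMIs there came from 1 nucleus. Calcr and Pde11a thus had nearly the same ratio with unlike spread over nuclei. Stk32b, a serine and threonine kinase, had the highest ratio of the named genes, 2.95 (2.61 to 3.31), at 104 and 13.4 CPM, and its relative Stk32a had 2.31 (1.88 to 2.75).

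The other 9 of the 15 higher genes ranged from 2.17 to 2.94. They were Adam12, a metalloprotease (2.94), Mctp2 (2.78), Cnih3, an auxiliary subunit of AMPA receptors (2.76), the integrin subunit Itga8 (2.73), the cholesterol exporter Abca1 (2.48), the potassium-dependent sodium and calcium exchanger Slc24a4 (2.32), the protease inhibitor Serpine2 (2.27), Tes (2.21) and the caveolin Cav2 (2.17). Each was found in 18 to 35 of the 49 marker nuclei and in 20 to 41 of the 205 others. None of these 9 was present in every marker nucleus.

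**Figure D1:**
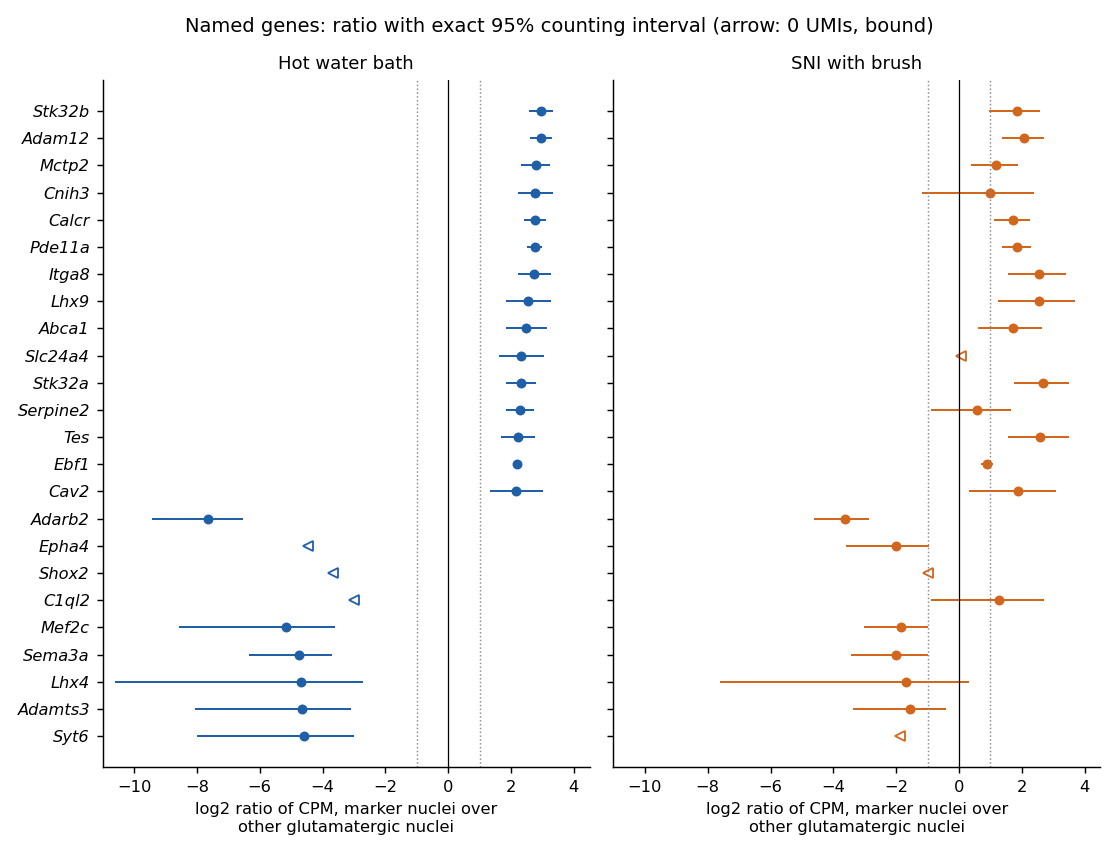
Log2 ratio of CPM (x axis) of the 24 named genes (y axis) in marker nuclei over other glutamatergic nuclei, for the hot water bath library (left) and the SNI with brush library (right). Points are ratios, lines are exact 95% counting intervals, arrows mark genes with 0 UMIs in marker nuclei at the bound set by 3 counts, and dotted lines mark 2-fold. In the SNI with brush library Slc24a4 and C1ql2 lie apart from their hot water bath values.

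Among the 9 lower genes, 2 homeodomain transcription factors, Shox2 and Lhx4, were nearly undetected in marker nuclei. Shox2 is known from excitatory interneurons of the spinal cord, and Lhx4 takes part in the specification of motor neurons. Shox2 had 0 UMIs in marker nuclei and 172 in the others, at least 12.7-fold lower. Lhx4 had 1 and 172 UMIs, a log2 ratio of -4.67 (-10.57 to -2.76). At least 1 of the 2 had a UMI in 1 of 49 marker nuclei, 123 of 205 other glutamatergic nuclei and 29 of 85 inhibitory nuclei. After thinning to 10000 UMIs the counts were 0 of 49, 61 of 205 and 9 of 85.

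The remaining lower genes belonged to other roles. Adarb2, a catalytically inactive member of the RNA-editing deaminases, gave 5 UMIs in marker nuclei and 4939 in the others, a log2 ratio of -7.64 (-9.40 to -6.55). It was found in 3 of 49 marker nuclei and 90 of 205 others. Epha4, an ephrin receptor of axon guidance, had 0 and 297 UMIs, at least 22.0-fold lower, and the synaptic organiser C1ql2 had 0 and 108, at least 7.99-fold lower. Mef2c (2 and 404 UMIs, -8.54 to -3.62), Sema3a (6 and 791), Adamts3 (2 and 286, -8.04 to -3.12) and Syt6 (2 and 271, -7.96 to -3.04) had ratios between -5.17 and -4.59. Epha4 was thus undetected in marker nuclei where 89 of the 205 others held it.

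The named genes were picked for their ratio between these same nuclei, so their sums per nucleus must differ and only show the spread. The 15 higher genes summed to a lowest of 8.11, a median of 20.02 and a highest of 50.1 UMIs per 10000 in hot water bath marker nuclei. The other glutamatergic nuclei had 0, 2.00 and 47.4, and inhibitory nuclei a median of 1.21. The 9 lower genes had a median of 0 and a highest of 1.31 in marker nuclei, and a median of 4.11 and a highest of 70.9 in the others. Nuclei just inside the rule, with exactly 3 markers, had a median of 15.7 for the higher genes, and those just outside it, with exactly 2, had 11.1. For the lower genes the 2 medians were 0 and 0.546. Nuclei without a marker had 1.52 and 4.97. The SNI with brush library had another order, with medians of 12.1 and 1.02 at exactly 3 markers, 2.22 and 4.34 at exactly 2, and 2.51 and 4.83 without a marker. Nuclei just outside the rule thus lay near those just inside it in the hot water bath library, and near those without a marker in the other.

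**Figure D2:**
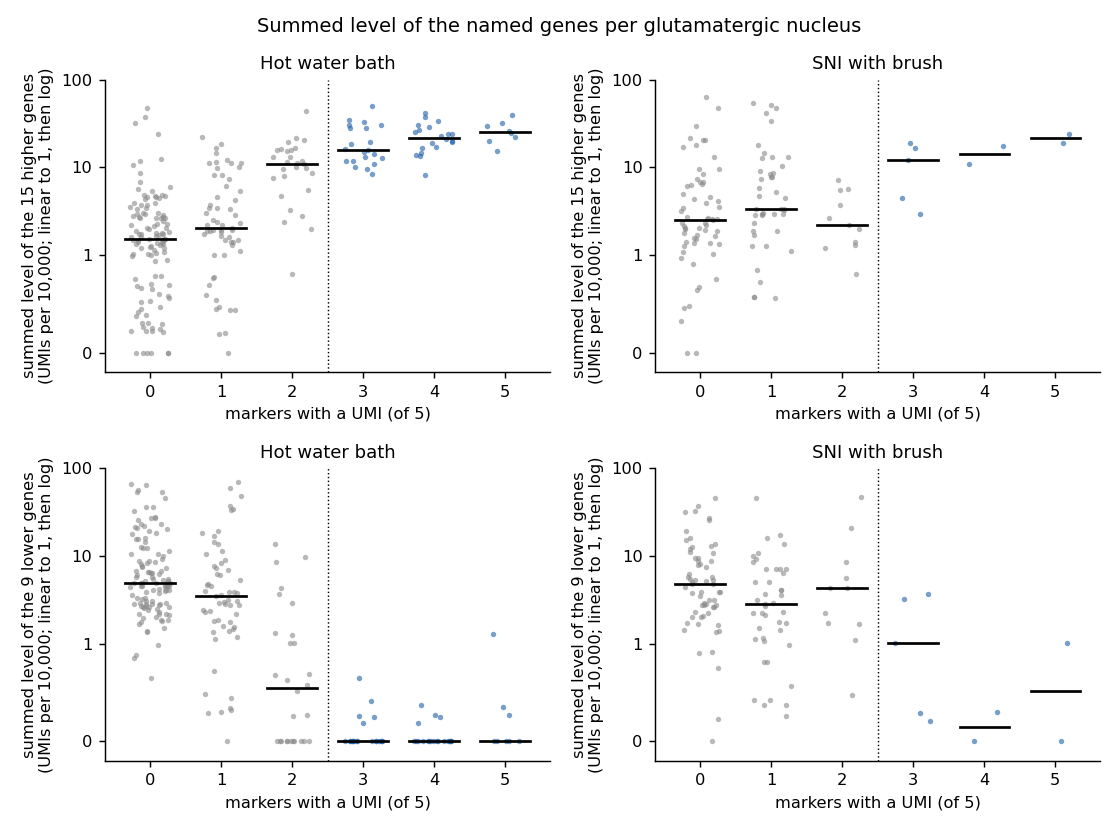
Summed level of the 15 higher genes (upper row) and the 9 lower genes (lower row) in UMIs per 10000, on a scale linear to 1 and logarithmic above, against the number of markers with a UMI. Points are single glutamatergic nuclei, black lines are medians, blue points are marker nuclei, and the dotted line is the threshold of the rule. In the hot water bath library the medians for the higher genes run from 1.52 at 0 markers to 25.6 at 5.

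Most of the named genes lay on the same side in the SNI with brush library, whose nuclei did not enter their choice. Of the 15 higher genes 11 were at least 2-fold higher in its 9 marker nuclei than in its 117 other glutamatergic nuclei, where 4.88% of the 10131 genes measured in both libraries were. Of the 9 lower genes 8 were at least 2-fold lower by the fitted ratio, where 6.57% of the genes were. For Shox2 (0 and 74 UMIs) the counts allow only at least 1.98-fold lower, and the interval of Lhx4 (1 and 60 UMIs, -1.69) ran from -7.59 to 0.27. Stk32a (2.66), Tes (2.58), Lhx9 (2.54) and Itga8 (2.54) had the largest ratios among the higher genes, and Ebf1 had 0.88 (0.72 to 1.03).

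Some of these values rested on few nuclei. In the SNI with brush library 48.6% of the Calcr UMIs, 57.1% of the Mctp2 UMIs and 40.0% of the Adam12 UMIs of marker nuclei came from 1 nucleus. The 9 marker nuclei, from deepest to shallowest, held 26, 0, 0, 9, 2, 2, 51, 22 and 0 Crh UMIs and 64, 102, 20, 35, 61, 72, 15, 13 and 0 Ebf1 UMIs. The shallowest nucleus had 0 UMIs of both genes. Slc24a4 had 0 UMIs in these nuclei and 36 in the others, and C1ql2 had 4 UMIs in 2 marker nuclei and 23 in the others. The summed level of the 15 genes was 2.93 at the lowest, 16.5 at the median and 24.3 at the highest in these 9 nuclei, against 0, 2.91 and 64.3 in the others.

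UMIs of a list of liver markers were frequent in the SNI with brush library. They were in 9 of 9 marker nuclei, 116 of 117 other glutamatergic nuclei and 106 of 106 inhibitory nuclei. The list was read as a sum, so no tissue was assigned to these UMIs. Of the liver markers Alb, Apoa1, Cps1 and Ttr, 3 had UMIs in the 9 marker nuclei and Cps1 was at 0. They summed to between 1.06 and 4.94 UMIs per 10000 in marker nuclei and between 0 and 41.3 in the other glutamatergic nuclei, whereas the hot water bath marker nuclei lay between 0 and 0.398. In both libraries Scrublet called 0 marker nuclei as doublets, of 3 hot water bath and 11 SNI with brush calls. The part of the liver list in the ratios of the SNI with brush library was not tested.

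Since many other glutamatergic nuclei carried Shox2 or Lhx4, the comparison was repeated against those without them. Of the 205, 82 had no UMI of Shox2 or Lhx4. Against these, 65 of 8371 measured genes were higher by 2-fold or more in the marker nuclei and 183 were lower by as much. Against all 205 the numbers had been 169 and 298 of 10178. Against the 123 nuclei with Shox2 or Lhx4 they were 198 and 253 of 9337. Median depth was 35367.5 UMIs in the 82 and 42453 in the 123, and a missed UMI cannot be told from absence. Stk32b (2.48), Abca1 (2.27) and Serpine2 (2.21) then had the highest ratios. Ebf1 had 1.32 (1.23 to 1.42), Lhx9 1.16 (0.48 to 1.87) and Tes 1.13 (0.60 to 1.68), while Adarb2 stood at -8.14 and Epha4 at least 17.5-fold lower. Calcr had 1.47, Mctp2 1.56 and Itga8 1.55. Of the 22 named genes other than Shox2 and Lhx4, 13 had a ratio outside the counting interval of their ratio against all 205, and 9 did not.

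Transcripts of Hox genes, whose expression along the hindbrain and cord marks position from front to back, were sparse in the hot water bath marker nuclei. Hoxb2, Hoxa3, Hoxb3 and Hoxd3, the 4 members of paralog groups 1 to 3 with at least 20 UMIs, and Hoxb4, Hoxc4 and Hoxd4 of groups 4 to 8 were each lower by 2-fold or more in the fitted ratio, where 4.73% of the 11847 genes at that floor were. For Hoxb4 (0 and 20 UMIs) the counts allow only at least 1.48-fold lower, and the interval of Hoxd4 (2 and 31 UMIs, -1.48) ran from -4.89 to 0.19. Hoxc4 had 0 UMIs in marker nuclei and 77 in the others, at least 5.70-fold lower, and Hoxb3 had 1 and 85 (-3.66, -9.56 to -1.72). Any Hox gene of groups 4 to 8 was found in 3 of 49 marker nuclei, 6.12% (1.28 to 16.9%), 89 of 205 other glutamatergic nuclei, 43.4% (36.5 to 50.5%), and 34 of 85 inhibitory nuclei. For groups 1 to 3 the numbers were 7, 118 and 59.

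The SNI with brush marker nuclei held more of these transcripts. Hox genes of groups 4 to 8 were found in 5 of the 9, 55.6% (21.2 to 86.3%), and in 81 of the 117 others, 69.2%. Groups 1 to 3 were found in 4 of 9 and 81 of 117. Hoxc4 had 4 UMIs in marker nuclei and 92 in the others, a log2 ratio of -0.72. The share of marker nuclei with a UMI of groups 4 to 8 thus had intervals of 1.28 to 16.9% and 21.2 to 86.3% in the 2 libraries. These intervals count nuclei of 1 pool each, and the difference was not tested. After thinning to 10000 UMIs the counts were 0 of 49 and 2 of 9.

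**Figure D3:**
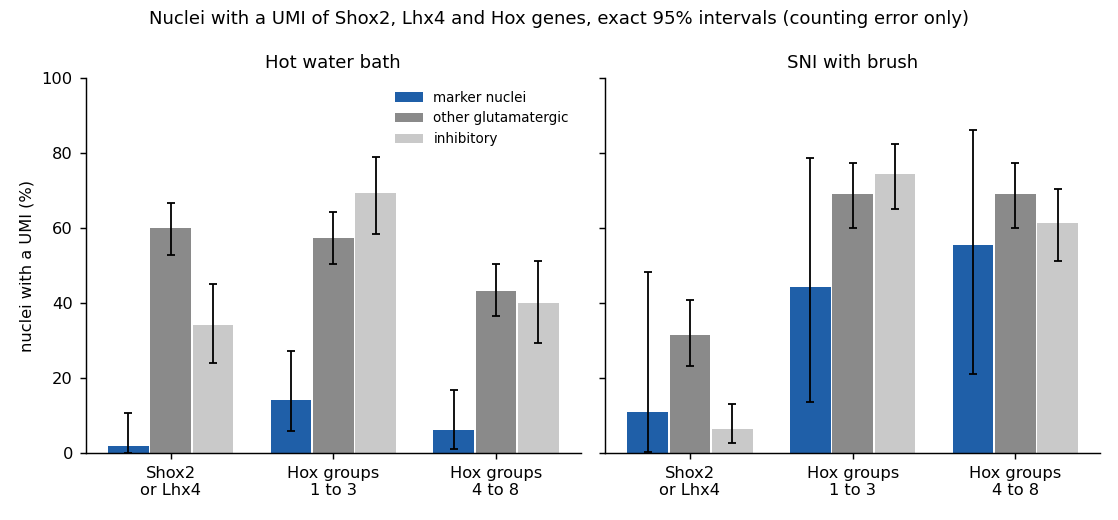
Percent of nuclei (y axis) with at least 1 UMI of Shox2 or Lhx4, of a Hox gene of paralog groups 1 to 3, and of groups 4 to 8, in marker nuclei, other glutamatergic nuclei and inhibitory nuclei of each library. Bars are shares and lines exact 95% intervals. The hot water bath marker nuclei have the lowest share for each set in that library, with 1, 7 and 3 of 49 nuclei.

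Gene lists of peptide and receptor function were then counted in the hot water bath library, over members with at least 20 UMIs. Over all genes at that floor the median log2 ratio was 0.01, with 2.76% higher by 2-fold or more and 4.73% lower by as much. The neuropeptide list had 24 measured members, of which 0 passed 2-fold upward and 13 downward. Its median was -1.11, or -0.99 with genes at 0 set to their bound. The 13 include Nxph1, Cbln1 and Cbln4, which are secreted synaptic proteins and not peptide transmitters. Tac2, which encodes neurokinin B, had 0 UMIs in marker nuclei and 103 in the others, at least 7.62-fold lower. Vip had 0 and 67, at least 4.96-fold lower, and Cck had 1 and 179 (-4.73, -10.62 to -2.82). Summed over the list, which leaves out Crh and Spx because they were in the rule, marker nuclei had 885 CPM and the others 1390. The sum includes Nxph1, Cbln1 and Cbln4, so it does not measure total peptide transcripts. In the SNI with brush library 0 of 20 measured members were at least 2-fold higher and 7 lower, with a median of -0.39. There 4.88% of the 10131 genes measured in both libraries were higher and 6.57% lower by as much.

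Partners of the markers were mostly near the level of the other nuclei. Crhr1, the main receptor for the Crh peptide, stood at 30.7 CPM in marker nuclei and 17.2 in the others (0.84, 0.37 to 1.29) and was found in 31 of 49, while its ratio was -0.75 (-1.97 to 0.13) in the SNI with brush library. Crhbp, the protein that binds and sequesters the peptide, had 4 and 54 UMIs (-1.43, -3.51 to -0.14). Of the galanin receptors Galr1 had 0 and 12 UMIs and Galr2 had 0 in both groups, which is below the floor. Of 5 measured partners of Svep1 and of the pathway it acts in, only Angpt1 differed by 2-fold, at 4.31 and 26.8 CPM (-2.55, -3.87 to -1.63), against 0.45 in the SNI with brush library, while the integrin subunits Itga9 and Itgb1 had -0.12 and 0.31. Of 9 other measured PR domain genes only Mecom did, with 3 and 179 UMIs (-3.51, -6.02 to -2.16), and the 179 came from 11 nuclei. The other 8 lay between -0.69 and 0.71. Over all genes at the floor of the lists 4.73% were at least 2-fold lower and 2.76% higher.

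Receptors on these nuclei formed an uneven set. Of all genes with at least 20 UMIs in the hot water bath library 2.76% were at least 2-fold higher and 4.73% lower. Of 26 peptide receptors 3 were at least 2-fold higher, Calcr, the kappa opioid receptor Oprk1 and the orexin receptor Hcrtr2, and 11 lower, among them Calcrl, Glp1r and Npffr2 with 0 UMIs each in marker nuclei. The median of the list was -0.27. In the SNI with brush library 5 of 21 were at least 2-fold higher and 3 lower, with a median of 0.24. There 4.88% of the 10131 genes measured in both libraries were higher and 6.57% lower by as much. Of 17 monoamine receptors the histamine receptors Hrh1 (2.08, 1.48 to 2.69) and Hrh3 were higher and the serotonin receptors Htr2c (-1.78, -1.90 to -1.67), Htr5a and Htr7 lower. The median of this list was 0.19. Among the 16 measured in the SNI with brush library 7 were at least 2-fold higher and 1 lower, with a median of 0.60. Hrh1 had 1 UMI in the SNI with brush marker nuclei, a log2 ratio of -1.40 (-7.30 to 0.57) there. Of 23 steroid and nuclear receptors Nr4a2 (1.92, 1.55 to 2.29), Rorb (57.1 and 18.9 CPM) and the estrogen receptor Esr1 (1.33, 1.03 to 1.62) were higher and 4 lower. Esr1 was found in 40 of 49 marker nuclei and 106 of 205 others, and had 0.58 in the SNI with brush library, where Nr4a2 had 2.34 and Rorb 1.01.

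Transcription factors of the hindbrain list were lower more often than higher. Of 43 measured, 6 were at least 2-fold higher (Lhx2, Lhx9, Sox5, Ebf1, Dach1 and Irx2) and 17 lower, with a median of -0.37. Over all genes with at least 20 UMIs 2.76% were higher and 4.73% lower by as much. Beside Lhx4 the lower ones included Bcl11b, with 0 and 91 UMIs, at least 6.73-fold lower, and Lhx3, with 0 and 46, at least 3.40-fold lower. The list was made with earlier results of these data known, as were the others, so its counts describe these nuclei and support no direction.

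A few receptors for the fast transmitters were at least 2-fold higher in the hot water bath library. Of 24 glutamate receptor genes Grin2c (1.23, 0.52 to 1.89) and Gria1, an AMPA receptor subunit (827 and 412 CPM, 1.01, 0.92 to 1.09), were at least 2-fold higher, and of 21 GABA and glycine receptor genes Gabre (2.60, 1.40 to 3.89), Glra2 (1.43), Gabrq (1.33) and Gabrg3 (1.21) were. The number at least 2-fold lower was 0 in both lists. Of all genes at that floor 2.76% were higher and 4.73% lower by as much. Lists this short cannot tell 0 from 4.73%. In the SNI with brush library 1 of 24 glutamate receptor genes was at least 2-fold higher and 0 lower. Of 19 GABA and glycine receptor genes 3 were higher and 2 lower, where 4.88% and 6.57% of the 10131 genes measured in both libraries were. Grin2c had 1.02 there (-0.24 to 1.98) and Gria1 0.91. Glra2 had 1.02, Gabrq 2.00, Gabre 2.17 (-0.03 to 3.78) and Gabrg3 0.42. Cnih3, which associates with AMPA receptors, was the named gene of related function.

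Ion channel lists were split. Over all genes with at least 20 UMIs 2.76% were at least 2-fold higher and 4.73% lower in the hot water bath library. Of 51 potassium channel genes 5 were higher and 6 lower, with Kcnip3 at 2.16 (1.79 to 2.53) and its relative Kcnip1 at -3.34 (-3.79 to -2.95), both modulators of A-type channels. Kcnh1 had -2.83 (-3.69 to -2.16). Of 37 sodium, calcium and HCN channel genes 1 was higher, Trpm3 (1.39, 1.31 to 1.47), and 6 were lower, led by the T-type calcium channel Cacna1i (-3.42, -5.48 to -2.21). Trpm3 had -0.12 in the SNI with brush library, against -1.97 for Kcnip1, -2.36 for Kcnh1 and 0.99 for Kcnip3.

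The next 3 lists are also read beside all genes with at least 20 UMIs, of which 2.76% were at least 2-fold higher and 4.73% lower. Of 31 genes for cyclic nucleotide enzymes 3 were higher, Pde11a, Gucy2f (1.37, 0.40 to 2.26) and the cyclic GMP-dependent kinase Prkg1 (1.20, 1.14 to 1.26), and Pde9a was lower. Of 15 immediate early genes 3 were higher, Nr4a2, Egr1 (1.23, 0.31 to 2.07) and Nr4a3 (1.01, 0.19 to 1.74), and none lower, with a median of 0.06. Egr1 rested on 18 UMIs in 7 marker nuclei. Axon guidance genes had 4 higher and 9 lower of 43. Ntn1, the midline attractant netrin, had 35 UMIs in 11 marker nuclei and 17 in the others (3.19, 2.34 to 4.14), and 1 and 35 UMIs (-0.92, -6.83 to 1.09) in the SNI with brush library.

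**Figure D4:**
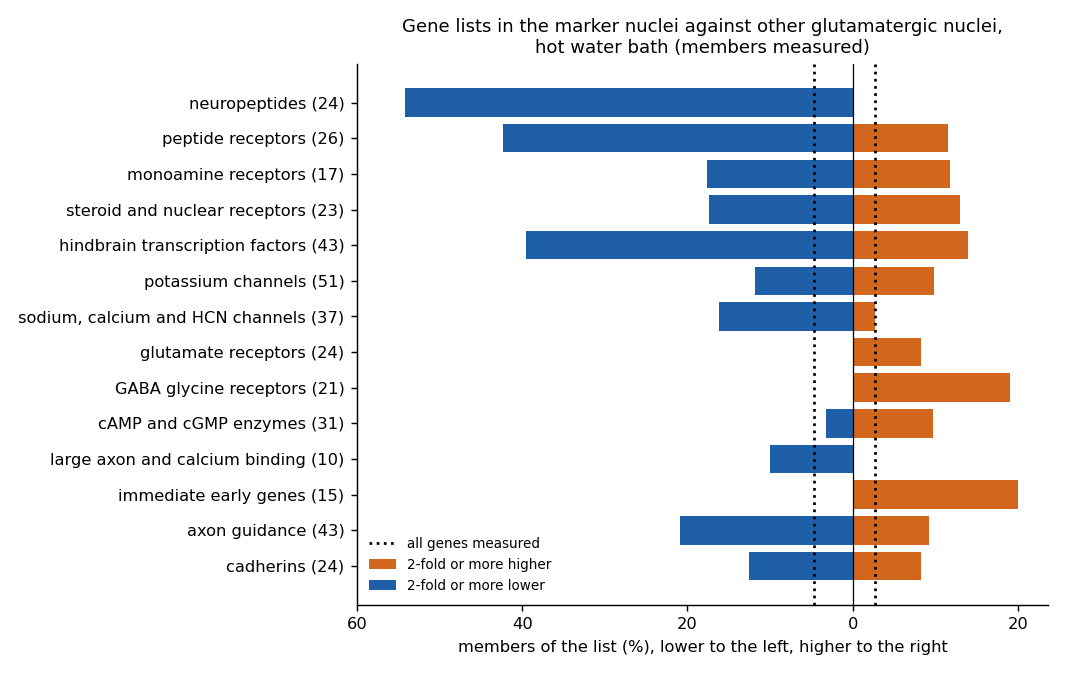
Percent of measured members of each gene list (y axis, number measured in brackets) that were at least 2-fold higher (orange, to the right) or at least 2-fold lower (blue, to the left) in hot water bath marker nuclei than in other glutamatergic nuclei. Dotted lines give the same for all 11847 genes measured, 2.76% and 4.73%. Of the lists drawn, neuropeptides reach furthest to the lower side, with 13 of 24. The 13 include Nxph1, Cbln1 and Cbln4, which are not peptide transmitters.

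Markers of other cell types were checked in the same nuclei. Of 5 noradrenergic markers Phox2a was at 0 in the hot water bath marker nuclei and the others gave 22 UMIs in 8 of 49 nuclei, between 0 and 4.08 UMIs per 10000, against 14 UMIs in 11 of 205 other glutamatergic nuclei, between 0 and 0.610. Dbh, the enzyme that makes noradrenaline, had 12 UMIs in 2 marker nuclei. Of 5 serotonergic markers Fev had 0 UMIs in marker nuclei and Tph2 and Slc6a4 1 each, while Ddc, which also acts in dopamine synthesis, had 65 against 120 in the others (1.29, 0.83 to 1.73) and the vesicular monoamine transporter Slc18a2 had 52 against 157. A UMI of the list was found in 37 of 49 marker nuclei and 108 of 205 others, at 64.1 and 48.9 CPM, and the list summed to between 0 and 2.99 UMIs per 10000 there and between 0 and 69.9 in the other glutamatergic nuclei. The part of either list in the ratios was not tested. The 3 microglial markers were found in 39 of 49 marker nuclei, 179 of 205 other glutamatergic nuclei and 72 of 85 inhibitory nuclei, at a median of 0.633, 0.645 and 0.684 UMIs per 10000. Oligodendrocyte markers were found in 45 of 49 marker nuclei, 187 of 205 other glutamatergic nuclei and 79 of 85 inhibitory nuclei, at 66.8, 70.3 and 86.1 CPM. Astrocyte and endothelial markers summed to 5 and 7 UMIs over the 49 hot water bath marker nuclei, with Slc1a3 and Cldn5 at 0. The SNI with brush marker nuclei had 4 and 1.

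The marker nuclei were not uniform. Clusters of the glutamatergic nuclei of both libraries were built without the 12 rule genes, and all 49 hot water bath marker nuclei fell in 3 of 14 clusters, called groups A, B and C here. Group A held 22 marker nuclei among its 43 hot water bath glutamatergic nuclei, group B 14 of 15, and group C 13 of 27. The largest share, in group A, was 44.9% of the 49 (30.7 to 59.8%). The number and size of groups depended on the clustering. These nuclei fell in 4 clusters at a finer resolution of 2.0 and with the hot water bath library alone. The cluster with most of them then held 20 of the 49 and 9 of the 205 others. At resolution 0.5 and with 15 components they fell in 3. No hot water bath nucleus of these 3 groups lacked all markers, whereas 118 of the 169 hot water bath nuclei outside them did. The markers were put together with earlier results of these data known, so this is a description. Of the SNI with brush marker nuclei 3, 1 and 3 fell in A, B and C and 2 elsewhere.

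The groups differed in which markers they held. Only the 12 rule genes were kept out of the clustering, and the 5 markers were put together with earlier results of these data known. These differences therefore describe the groups and support nothing. Group A had Prdm6 in 22 of 22 marker nuclei and Crh in 20, at 112 and 141 CPM. Group B had Prdm6 and Spx in 14 of 14, at 192 (154 to 236) and 224 (183 to 271) CPM, with Crh at 23.5 CPM (11.7 to 42.0) and Asb4 at 14.9. Group C had Prdm6 in 4 of 13, at 15.5 CPM (6.24 to 32.0), and Crh, Svep1 and Asb4 in 12, 11 and 12. Over all glutamatergic nuclei of the groups, whatever their number of markers, Prdm6 was in 43 of 43 nuclei of A, 15 of 15 of B, 5 of 27 of C and 3 of 169 elsewhere. Crh was in 22 nuclei of A, 7 of B, 20 of C and 6 elsewhere, and Spx in 19, 15, 6 and 30. The sets seen in marker nuclei alone are limited by the rule, since a nucleus without Prdm6 and Spx could enter only with the other 3 markers.

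**Figure D5:**
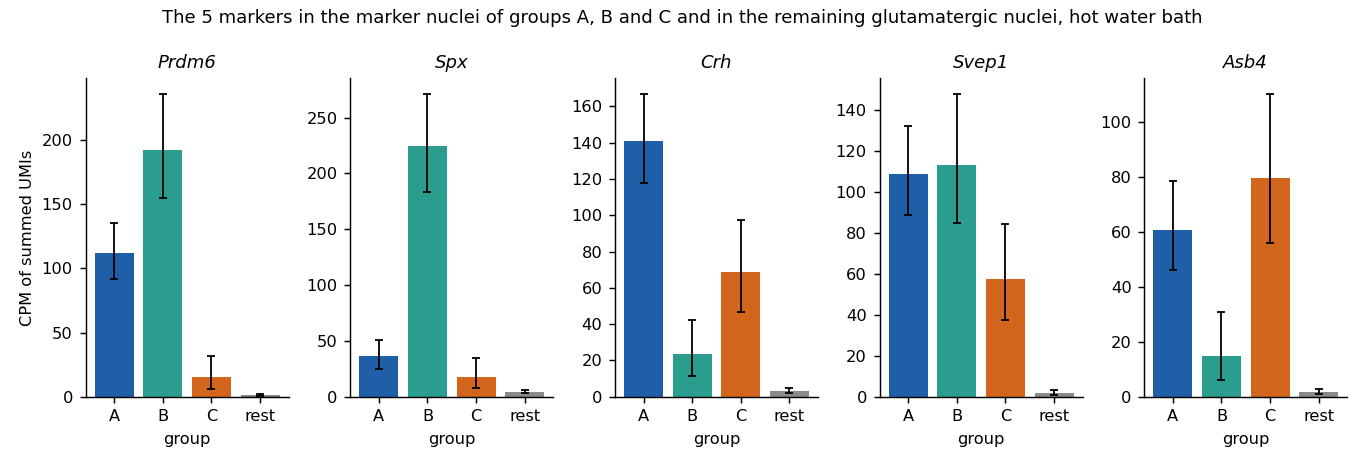
CPM of summed UMIs (y axis, scaled separately for each gene and starting at 0) of the 5 markers in the hot water bath marker nuclei of groups A (22 nuclei), B (14) and C (13) and in the 169 glutamatergic nuclei outside the groups. Lines are exact 95% Poisson intervals. Spx is highest in B, Crh in A, and Prdm6 is low in C.

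The 24 named genes were divided among the groups as well. These genes took part in the clustering, so their levels describe the groups only. Calcr was found in 12 of 22 marker nuclei of A, 0 of 14 of B and 10 of 13 of C, and Mctp2 in 8, 0 and 13. Serpine2 was found in 6, 14 and 0 and Slc24a4 in 4, 13 and 1. Lhx9 was found in 14, 11 and 1 and Stk32a in 18, 9 and 2. Ebf1 was found in every marker nucleus of each, at 1133, 2225 and 423 CPM. Pde11a, Cnih3, Stk32b, Cav2 and Tes were spread over all 3. Pde11a was in 20, 14 and 11 nuclei, but at unlike levels of 218, 500 and 102 CPM. Tes was in 10, 13 and 11 nuclei. No gene among Shox2, Epha4 and C1ql2 had a UMI in any of the 3.

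By their medians, nuclei of the groups that the rule left out lay between the marker nuclei and the rest in these genes. The genes were picked for their ratio in marker nuclei and took part in the clustering, so this place is a description. The 36 hot water bath nuclei of groups A, B and C with fewer than 3 markers summed to a median of 11.5 UMIs per 10000 over the 15 higher genes, between 3.28 and 44.1, and to 0.414 over the 9 lower genes. The 169 nuclei elsewhere had medians of 1.64 and 4.95. For the higher genes the ranges overlapped, with 8.11 to 50.1 in marker nuclei and 0 to 47.4 in the 169. Median depth of all nuclei of the groups was 39265, 34422 and 31558 UMIs for A, B and C and 40363 elsewhere. The rule thus took 49 of the 85 hot water bath nuclei of these groups, and all of the 36 it left out had 1 or 2 detected markers.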

How the data were processed

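Nuclei of 2 pooled libraries, 1 per treatment, were analysed from UMI count matrices deposited by the authors. Cell Ranger 5.0, Seurat and the build mm10 are named in the submitters' processing notes. The rule that reduced 723 and 850 listed barcodes to 425 and 288 nuclei is not stated by the labels or notes. Totals were 16344606 and 11298755 UMIs, with medians of 36962 and 32852.5 per nucleus. Nuclei were classed by transmitter UMIs (inhibitory: at most 25% from the Slc17a genes) and by the 5 markers. The members and the gene lists were chosen with earlier results of these data known.

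UMIs were summed over nuclei. Ratios used 0.5 added UMI and exact conditional intervals, shares exact Clopper-Pearson intervals and CPM exact Poisson intervals. Floors were 50 UMIs for all genes and 20 for lists. A count of 0 was bounded with 3 counts over the summed group. Named genes are the 15 highest and 10 lowest that met the stated detection limits, plus up to 4 members per list; others in the text were chosen after their values were seen. Of the genes in the lists 2 are not reported here, 1 of them among the 10 lowest. The ratio computation was tested on simulated data. Doublets called by Scrublet were not removed. Clusters came from scanpy 1.11.5 without the 12 rule genes. Python 3.11.15, numpy 2.4.6, pandas 2.3.3 and scipy 1.17.1 were used. Gene coordinates are from GENCODE on GRCm38, where all 688 identifiers looked up were found, and promoters from RefSeq on GRCm38.p6. No test between treatments was possible with 1 library each.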

Additional observations from a re-analysis of the deposited data

Results flagged for a closer look

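The fitted ratios of Slc24a4 had opposite signs in the libraries, but its side in the SNI with brush library is not settled by the counts. It was higher in hot water bath marker nuclei (40 and 36 UMIs, log2 ratio 2.32) and had 0 UMIs in the 9 SNI with brush marker nuclei and 36 in the other nuclei there, a fitted log2 ratio of -2.55 with an upper limit of 0.43. C1ql2 had 0 and 108 hot water bath UMIs, and 4 and 23 SNI with brush UMIs, a log2 ratio of 1.26 (-0.87 to 2.67). Of those 4 UMIs 75% came from 1 nucleus. Neither difference between libraries was tested.

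A signal was also present in nuclei outside the comparisons. The 15 hot water bath nuclei with 3 or more markers that did not pass the transmitter part of the rule summed to a median of 20.3 UMIs per 10000 over the 15 higher genes, between 5.71 and 63.5, where inhibitory nuclei had a median of 1.21. Their median for the 9 lower genes was 0.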

How the results depend on the processing

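No paired analysis was possible because each group has 1 sample. The shares and numbers of marker nuclei moved with the rule. With 4 or more markers they were 28 hot water bath nuclei (11.0%) and 4 SNI with brush nuclei (3.17%), and with 2 or more markers 77 (30.3%) and 20 (15.9%). With the rule applied after thinning they were 7 (7.78%) and 1 (1.82%). With a marker left out the hot water bath share was 14.2% without Prdm6, 14.6% without Crh or Svep1 and 13.4% without Asb4, and the SNI with brush number was 5 without Asb4, as it was with a transmitter share of at least 90%.

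Genes higher and lower by 2-fold numbered 289 and 559 after thinning the rule and 327 and 560 at a floor of 20 UMIs. They numbered 82 and 129 at a floor of 200, and 65 and 183 against nuclei without Shox2 and Lhx4. The number of genes measured differed between these settings. The lower genes numbered 171 with 2 or more markers, 190 with thinned sums and 468 against all other nuclei. For SNI with brush, 6 of the 15 higher and 1 of the 9 lower genes passed 2-fold with 2 or more markers, and 3 lower genes did after thinning the rule. The causes were not tested. Of the other comparisons of main values with an alternative, 86 stayed within their limits. All 24 named genes kept the sign of their hot water bath ratio under the alternatives run for them, but their size moved. Of the comparisons of a named gene with an alternative, 38 lay outside its counting interval and 200 within, and the log2 ratio ran from 1.47 to 7.15 for Calcr and from 1.53 to 5.31 for Mctp2. The comparison without Shox2 and Lhx4 and the one with nuclei that failed the transmitter part were chosen after seeing the data. With 9 nuclei, the SNI with brush library cannot place most single genes.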

Other observations

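Cadherins, which join cells of like type, had members in both directions in the hot water bath library. Of 24 measured, Cdh9 and Pcdh20 were at least 2-fold higher in marker nuclei and Cdh4, Cdh23 and Pcdh18 lower, where 2.76% and 4.73% of all genes at that floor were. Cdh9 gave 596 UMIs in marker nuclei and 940 in the other glutamatergic nuclei, a log2 ratio of 1.51 (1.36 to 1.66). Its SNI with brush ratio was 1.83 (1.53 to 2.12). Cdh4 had -1.42 (-1.77 to -1.10) and -0.86 (-1.51 to -0.32).

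Between the marker nuclei of the libraries, Crh stood at 260 CPM (214 to 313) in SNI with brush and 93.7 CPM (80.3 to 109) in hot water bath, and 45.5% of the SNI with brush UMIs came from 1 of 9 nuclei. Spx stood at 25.6 and 79.2 CPM and Prdm6 at 58.1 and 109 CPM. These are values of 2 pools, selected on these genes, and no difference between treatments was tested.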
